A study of Rattus norvegicus with 6 samples.

Results

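B lymphocytes and their precursors were followed through 9 genes in RNA-seq libraries of rat spinal cord: *Cd79a*, *Cd79b*, *Fcrla*, *Fcrl2*, *Ms4a1*, *Vpreb1*, *Rag1*, *Pax5* and *Ebf1*. The genes were found by their symbol among the 22050 genes of the deposited table, and each was present once. They had been chosen by their B lineage function and by their levels in single libraries, so the fold changes given here describe them and are no independent evidence of a difference. There were 3 libraries from sham rats (Sham) and 3 from rats with neuropathic pain after spared nerve injury (SNI-NP). Spared nerve injury is a surgical lesion in which some branches of the sciatic nerve are cut and one is left intact. According to the methods, the animals were young adult male Sprague–Dawley rats of no stated genotype change, and the controls underwent a sham operation. The time after surgery, the spinal level and the side of the tissue used for RNA-seq are not given in the sources used here, nor is it stated whether 1 library was 1 rat, so the p-values measure only the spread between these libraries.

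A B cell reads antigen with a membrane immunoglobulin that signals through a dimer of the proteins encoded by *Cd79a* and *Cd79b*. Before that receptor exists, precursors in the bone marrow rearrange immunoglobulin genes with the recombinase that *Rag1* encodes a part of, and test the new heavy chain with a surrogate light chain that contains the *Vpreb1* product. The transcription factors *Ebf1* and *Pax5* start and hold the B cell programme, and *Ms4a1*, which encodes CD20, marks later stages. A healthy spinal cord holds few B lineage cells.

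*Cd79a*, *Fcrla* and *Rag1* are shown here by the 250 bases before their start, because these windows hold letters that transcription factors of early B cells are known to bind. The sequences are from RefSeq on the assembly GRCr8, which is not the build the reads were mapped to, and they are written 5′ to 3′ on the gene's strand. Capitals mark a match to the EBF half-site GGGAAT, to the E-box CAGGTG that E2A proteins bind, to the Ets motif GAGGAA of PU.1 (TTCCTC on the other strand), or to the RUNX motif TGTGGT.
Cd79a, chr1:89621210-89621459, plus strand: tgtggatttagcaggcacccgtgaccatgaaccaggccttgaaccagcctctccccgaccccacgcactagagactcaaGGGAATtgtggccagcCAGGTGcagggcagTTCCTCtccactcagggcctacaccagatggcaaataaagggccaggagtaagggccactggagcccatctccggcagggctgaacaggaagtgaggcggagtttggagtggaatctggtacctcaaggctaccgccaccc
Fcrla, chr13:85702827-85703076, minus strand: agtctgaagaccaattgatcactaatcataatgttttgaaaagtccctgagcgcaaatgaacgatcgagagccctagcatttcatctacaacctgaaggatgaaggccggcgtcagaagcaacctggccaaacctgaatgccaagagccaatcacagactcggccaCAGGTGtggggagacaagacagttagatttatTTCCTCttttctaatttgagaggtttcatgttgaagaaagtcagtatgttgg
Rag1, chr3:108383185-108383434, minus strand: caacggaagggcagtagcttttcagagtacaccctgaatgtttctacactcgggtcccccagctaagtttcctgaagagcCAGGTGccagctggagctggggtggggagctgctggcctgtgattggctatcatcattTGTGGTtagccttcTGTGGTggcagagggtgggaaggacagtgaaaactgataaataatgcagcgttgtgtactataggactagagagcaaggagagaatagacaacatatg

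The *Cd79a* window held the EBF half-site, the E-box and the Ets motif within 171 to 136 bases before the start. The *Fcrla* window held the E-box and the Ets motif. The *Rag1* window held the E-box and 2 copies of the RUNX motif. Both strands were searched, no match overlapped another, and these letters are common. Of 33469 rat promoter windows of the same length, 11.6% held the EBF half-site, 15.9% the E-box, 23.3% the Ets motif and 14.5% the RUNX motif. The palindromic EBF site (0.738% of windows) and the octamer ATGCAAAT (1.56%) were not found in the 4 windows that could be read, and the *Ebf1* window held none of the 6 motifs. The motifs were chosen with these sequences in view, and a match is a description of letters, not of binding. No window was matched for the other 5 genes.

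Depth was even, between 16670760 and 18151156 estimated counts per library, and where no read was counted a level of up to 0.167 to 0.18 CPM, that of 3 counts, is allowed. CPM values here are estimated counts put on a common scale of library size with TMM factors, and intervals and floors cover counting error only. The tissue is labelled spinal cord, and *Mbp*, a myelin gene of both central and peripheral glia, was present at 25760 to 34303 CPM. *Scn10a*, a sodium channel gene of dorsal root ganglion neurons, ranged from 14.3 CPM in SNI-NP 1 to 277 CPM in SNI-NP 2. The listed genes of these neurons summed to 659 to 1322 CPM in Sham and 225 to 1774 CPM in SNI-NP. Those of peripheral myelin summed to 18214 to 21693 CPM in Sham and 20709 to 27373 CPM in SNI-NP. The share of peripheral tissue in the libraries was not tested. In bulk tissue, fewer cells of a type and less RNA per cell cannot be told apart.

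Of the 9 genes, 8 had enough counts to be tested. By edgeR's quasi-likelihood test, 0 passed an adjusted p of 0.05 (range 0.317 to 0.741), 3 were higher in SNI-NP rats with an unadjusted p under 0.05, and 1 was lower. Over all 14426 genes tested, 4.91% were higher and 5.94% lower at that unadjusted threshold, and 0.0% passed a fold change of 2 with an adjusted p under 0.05. The 4 genes also had a fold change above 2 in their direction, which with the unadjusted p held for 0.742% of all genes (higher) and 1.53% (lower). In 4 of the 8 genes every SNI-NP library lay above every Sham library, against 10.3% of all genes tested, and in 0 every SNI-NP library lay below, against 8.14%. *Pax5*, which was not tested, had all SNI-NP libraries below all Sham libraries in CPM. With *Cd79a* summed with its copy *Cd79al*, a sum described further on, 3 genes were without overlap. Since these genes were chosen with their levels known, nothing is read from the difference between these shares. The median fitted log2 fold change was 0.73 for the 8 genes and 0.006 for all genes tested. Without SNI-NP 1, 2 of the genes had an unadjusted p under 0.05 instead of 4.

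**Figure D1:**
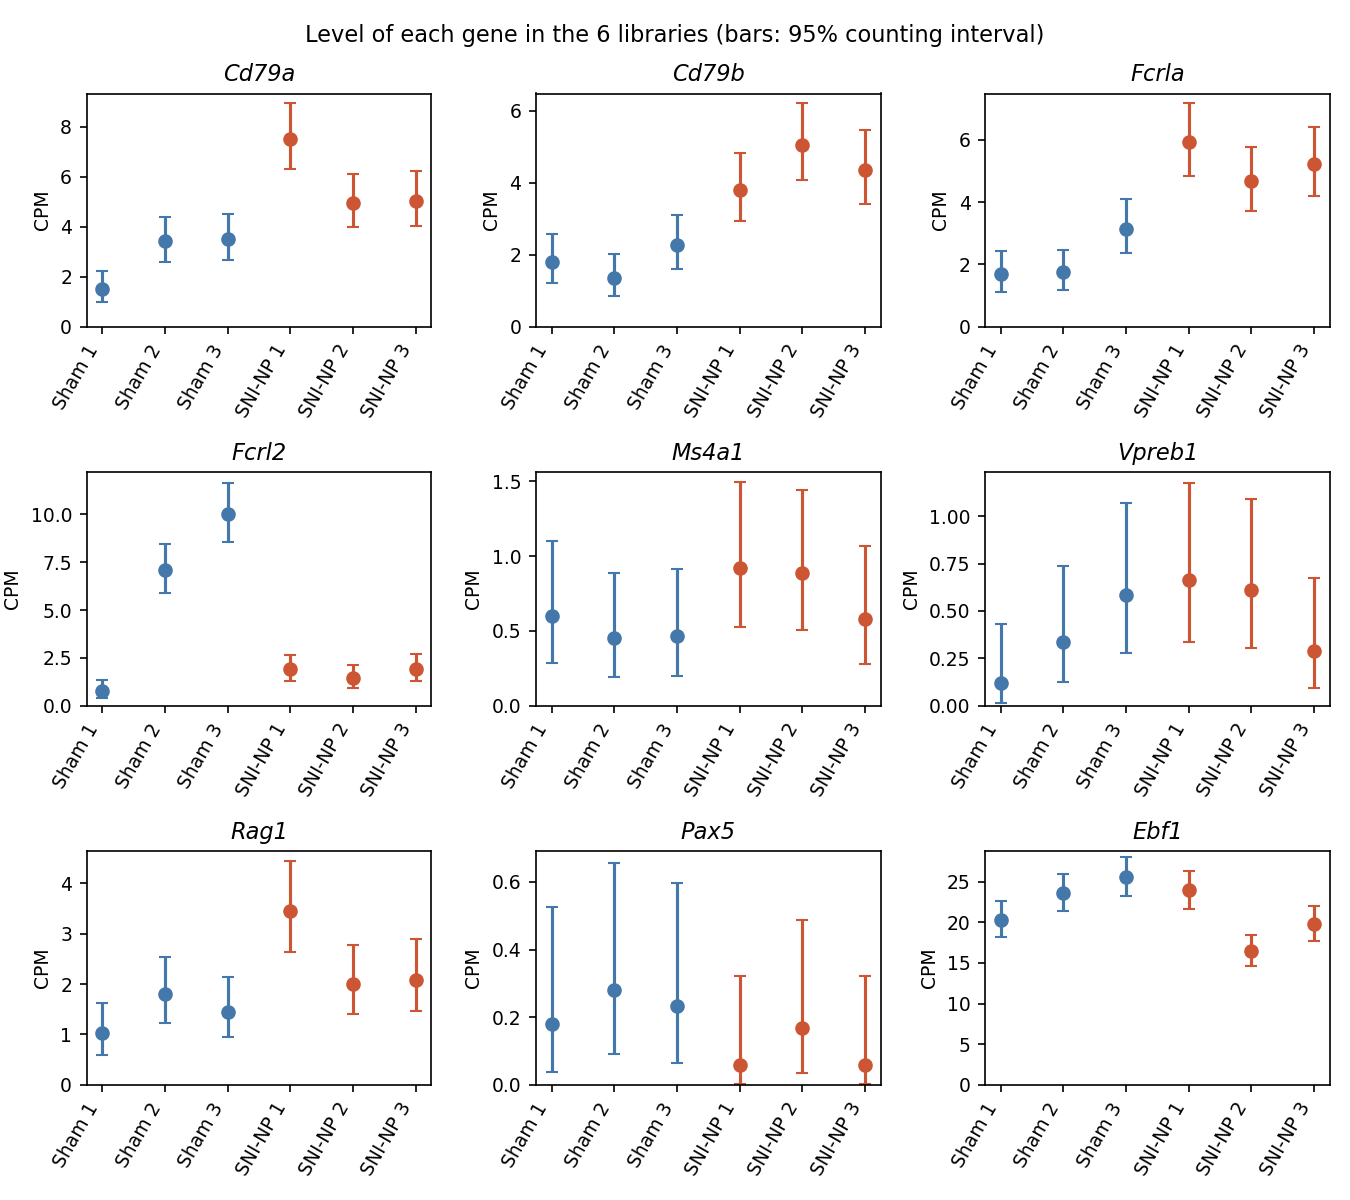
Level of the 9 genes in each library in CPM (linear axes from 0, with a scale of its own in each panel), with exact Poisson 95% intervals of the counts as bars, Sham in blue and SNI-NP in red. *Cd79a*, *Cd79b*, *Fcrla* and *Rag1* have all SNI-NP points above all Sham points and *Pax5* has them below, with intervals that overlap, whereas *Fcrl2* is high in Sham 2 and Sham 3 alone, at 7.10 and 10.01 CPM.

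*Cd79b*, one chain of the antigen receptor dimer, had 30, 24 and 39 counts in Sham 1, 2 and 3 and 66, 91 and 75 counts in SNI-NP 1, 2 and 3. On the CPM scale these were 1.80, 1.35 and 2.27 against 3.80, 5.05 and 4.35. The groups did not overlap, and no single library stood out. The fitted log2 fold change was 1.28 (SE 0.28), with an unadjusted p of 0.00223 and an adjusted p of 0.317 by edgeR. Under DESeq2 the adjusted p was 0.0312 at the same log2 fold change of 1.28, so the call depended on the tool. Leaving out each library in turn gave log2 fold changes between 1.11 and 1.45, with an unadjusted p under 0.05 in 6 of 6 fits.

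*Cd79a*, the other chain of the dimer, had 25.21, 60.5 and 60.33 estimated counts in the Sham libraries and 130.7, 89.03 and 86.92 in the SNI-NP libraries. In CPM these were 1.51, 3.41 and 3.51 against 7.52, 4.94 and 5.04. Sham 1 was lowest and SNI-NP 1 highest, and the groups did not overlap. The log2 fold change was 1.06 (SE 0.36), with an unadjusted p of 0.0205 and an adjusted p of 0.436. Without SNI-NP 1 the unadjusted p was 0.0634, with a log2 fold change of 0.84.

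These counts were not whole, and neither were those of *Cd79al*, a copy that the table describes as a *Cd79a*-like molecule and that RefSeq lists as a synonym of *Cd79a*. *Cd79al* had 19.79, 0.5 and 28.67 estimated counts in the Sham libraries and 29.3, 28.97 and 0.08 in the SNI-NP libraries. The sum of both genes was whole within 0.02 counts in all 6 libraries, at 45, 61 and 89 in Sham and 160, 118 and 87 in SNI-NP. The copy took from 0.092% of the sum in SNI-NP 3 to 44.0% in Sham 1. Summed levels were 2.70, 3.44 and 5.18 CPM in Sham and 9.20, 6.55 and 5.04 CPM in SNI-NP. The groups therefore overlapped once both entries were summed, since Sham 3 lay above SNI-NP 3. The log2 fold change of the sum was 0.88 (SE 0.33), with an unadjusted p of 0.0296 and an adjusted p of 0.436. The sum had an unadjusted p of 0.0937 without Sham 1, 0.073 without Sham 2 and 0.0979 without SNI-NP 1, with log2 fold changes of 0.65, 0.81 and 0.62.

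**Figure D2:**
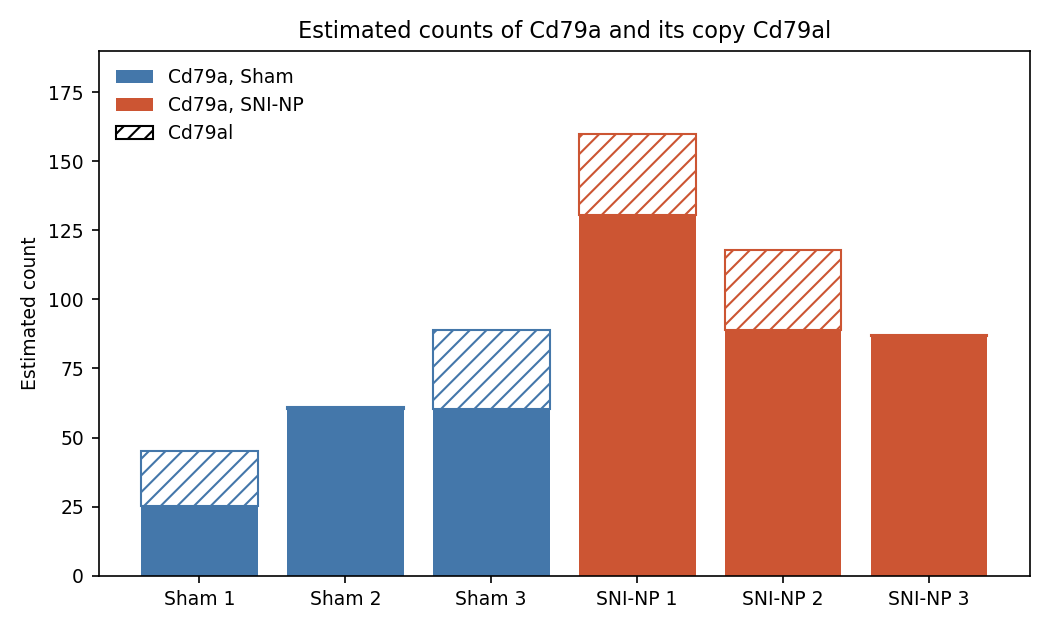
Estimated counts of *Cd79a* (filled) and of its copy *Cd79al* (hatched, stacked on top) in each library, on an axis from 0. The height of a bar is the sum of both, 45 to 89 in Sham and 87 to 160 in SNI-NP, and the hatched part is nearly missing in Sham 2 and SNI-NP 3.

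The Fc receptor-like genes had fold changes of opposite sign. *Fcrla*, which encodes an intracellular protein of B cells that binds immunoglobulin, had 28, 31 and 54 counts in the Sham libraries and 103, 84.04 and 90 in the SNI-NP libraries. In CPM these were 1.68, 1.75 and 3.14 against 5.92, 4.67 and 5.22. All SNI-NP libraries lay above all Sham libraries. The log2 fold change was 1.26 (SE 0.30), with an unadjusted p of 0.00381 and an adjusted p of 0.336 by edgeR, and DESeq2 gave an adjusted p of 0.0354. The unadjusted p stayed under 0.05 in 6 of 6 fits that left out a library.

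*Fcrl2*, for which RefSeq gives the synonyms *Fcrls* and *Msr2*, had 13, 126 and 172 counts in the Sham libraries and 33, 26 and 33 in the SNI-NP libraries. The gene known as *Fcrls* in mouse is a microglial marker, so its place among B cell genes rests on the name used in the table. In CPM the Sham libraries were at 0.78, 7.10 and 10.01 and the SNI-NP libraries at 1.90, 1.44 and 1.91. Sham 2 and Sham 3 were high and Sham 1 was the lowest of all 6, so the groups overlapped. The highest library was 12.8 times the lowest. For *Fcrl2* the fit gave -1.77 (SE 0.75) on the log2 scale, with an unadjusted p of 0.0495 and an adjusted p of 0.459. Of the 6 fits without a library, 1 kept an unadjusted p under 0.05, that without Sham 1, and the log2 fold change ran from -2.30 to -1.21. The microglial list had summed levels of 384 to 490 CPM in Sham and 419 to 443 CPM in SNI-NP.

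Among the genes of precursors, *Rag1* had 17, 32 and 25 counts in the Sham libraries and 60, 36 and 36 in the SNI-NP libraries. In CPM these were 1.02, 1.80 and 1.46 against 3.45, 1.999 and 2.09. The groups did not overlap, but SNI-NP 2 lay close to Sham 2, and SNI-NP 1 was 1.65 times the next library (95% counting interval 1.09 to 2.50). Its log2 fold change was 0.81 (SE 0.36), with an unadjusted p of 0.0588 and an adjusted p of 0.476. *Rag2*, which encodes the partner of the recombinase, had at most 5 counts in any library.

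*Vpreb1* was near the limit of detection, with 2, 6 and 10 counts in Sham and 11.55, 11 and 5 in SNI-NP. Its count in SNI-NP 1 was not whole, nor was that of *Vpreb2*, and the sum of both was 3, 6 and 10 against 14, 12 and 5 counts. The groups overlapped in either form. The log2 fold change was 0.60 (SE 0.65, adjusted p 0.741 by edgeR) for *Vpreb1* and 0.67 (SE 0.61) for the sum. *Igll1*, the other part of the surrogate light chain, had 4, 2 and 9 counts in Sham and 8, 1 and 10 in SNI-NP.

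Of the transcription factors, *Pax5* had 3, 5 and 4 counts in Sham and 1, 3 and 1 in SNI-NP, too few to be tested. In CPM these were 0.18, 0.282 and 0.233 against 0.058, 0.167 and 0.058, and the groups did not overlap, although 3 counts occurred in both. A difference was not detectable at this depth. *Ebf1* had 339, 419 and 439 counts in Sham and 416, 297 and 341 in SNI-NP, or 20.4, 23.6 and 25.6 CPM against 23.9, 16.5 and 19.8 CPM. These groups overlapped, and the log2 fold change was -0.21 (SE 0.17), with an adjusted p of 0.654. *Ebf1* is also expressed by pericytes, fibroblasts and some neurons. Its relatives *Ebf2* and *Ebf3*, which do not mark B cells, were present at 32.8 to 54.0 and 19.3 to 30.2 CPM.

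*Ms4a1* had 10, 8 and 8 counts in Sham and 16, 16 and 10 in SNI-NP, or 0.60, 0.45 and 0.47 CPM against 0.92, 0.89 and 0.58 CPM. Sham 1 and SNI-NP 3 were close, and the groups overlapped. A log2 fold change of 0.65 (SE 0.42) was fitted (adjusted p 0.569 by edgeR).

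Levels of different genes were compared per length, on the deposited FPKM scale. *Ebf1* was highest at 9.50 ± 2.09 FPKM (mean ± SD over the 6 libraries), followed by *Cd79a* at 4.24 ± 1.89, *Fcrla* at 2.98 ± 1.42, *Cd79b* at 2.56 ± 1.23 and *Fcrl2* at 2.55 ± 2.51 FPKM. *Vpreb1* (0.545 ± 0.268), *Ms4a1* (0.528 ± 0.159), *Rag1* (0.302 ± 0.119) and *Pax5* (0.140 ± 0.080 FPKM) came last. This order is that of both groups together. *Fcrl2* was second in Sham, at a mean of 3.97 FPKM against 2.82 for *Cd79a*, and at 1.13 FPKM in SNI-NP. The ranges of every pair of neighbours in this order overlapped over the libraries. The FPKM value of *Cd79a* leaves out the reads assigned to *Cd79al*. The label of the set was thus carried by *Cd79a*, *Cd79b* and *Fcrla*, whereas *Pax5*, *Ms4a1* and *Vpreb1* had few counts and most of the summed counts were *Ebf1*.

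Single libraries were then compared. The summed level of all 9 genes was 28.0, 40.1 and 47.2 CPM in Sham and 48.2, 36.3 and 39.3 CPM in SNI-NP, with overlapping groups. Which library was highest depended on the scaling, since Sham 3 was 1.03 times SNI-NP 1 without TMM factors. Without *Ebf1* and *Fcrl2*, a choice made after their values were seen, the sum was 6.92, 9.38 and 11.7 CPM in Sham and 22.3, 18.3 and 17.6 CPM in SNI-NP. No gene had a highest library of at least 2 times the next, a property of 0.769% of all genes tested. Sham 1 was the lowest library in 5 of the 9 genes and SNI-NP 1 the highest in 5 of 9, and over all genes tested these libraries were lowest in 17.6% and highest in 20.4%.

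Other B lineage genes were taken from 3 lists of receptor signalling, precursor and mature B cell genes. Their levels differed widely, with *Cd81* at 959 to 1164 CPM and *Akap12* at 357 to 681 CPM over the libraries, against 0.45 to 0.92 CPM for *Ms4a1*. Which cells these transcripts came from was not tested, so the lists are not a measure of B cells alone. Of 64 listed genes, 58 were found and 45 tested. By edgeR, 6 were higher in SNI-NP rats with an unadjusted p under 0.05 (4.91% of all genes tested), 0 were lower and 0 passed the adjusted threshold. The median log2 fold change of the 45 was 0.17. The count of 6 rested on single libraries, being 1 without Sham 1 and 3 without SNI-NP 1, and 3 genes were lower without Sham 2 and 1 without SNI-NP 1. In 10 of the 45 every SNI-NP library lay above every Sham library, against 10.3% of all genes tested. In 1, *Pou2f2*, every SNI-NP library lay below, against 8.14%.

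The 6 higher genes, named after their values were seen, were *Blk*, *Tcf3*, *Irf4*, *Ighm*, *Pou2af1* and *Cxcr4*. Log2 fold changes were positive in 16 of 20 receptor signalling, 9 of 12 precursor and 11 of 13 mature genes, against 50.9% of all genes. This lean depended on single libraries. The median of the receptor signalling genes was 0.17, and -0.004 without Sham 1. Sham 1 was the lowest library in 13 of those 20 genes, against 17.6% of all genes tested. Over the 3 lists together, the median was 0.10 without Sham 1 and 0.29 without Sham 2. Negative fits included *Flt3* (-0.60, SE 0.32) and *Arpp21* (-0.54, SE 0.25), and *Cd22* and *Cd37* were at 0.09 and 0.04. *Blk*, a kinase gene of B cells, had 6, 10 and 21 counts in Sham and 36, 30 and 24 in SNI-NP (log2 fold change 1.25, SE 0.49, adjusted p 0.443 by edgeR), and the groups did not overlap. Its unadjusted p was under 0.05 in 1 of 6 fits that left out a library, with log2 fold changes from 0.92 to 1.84. *Ighm*, the constant region of the first heavy chain made, was at 24.4, 36.0 and 46.2 CPM in Sham and 71.0, 48.4 and 51.9 CPM in SNI-NP. Its log2 fold change was 0.69 (SE 0.25), with an unadjusted p of 0.0267 and an adjusted p of 0.436, and 3 of 6 fits without a library had an unadjusted p under 0.05.

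*Igh-6*, a second heavy chain entry of the table and in none of the lists, was looked at after its values were seen. It had 18, 17 and 16 counts in Sham and 92, 42 and 92 in SNI-NP. The groups did not overlap, with a log2 fold change of 2.12 (SE 0.39), an unadjusted p of 7.76e-04 and an adjusted p of 0.274 by edgeR. The unadjusted p of *Igh-6* was under 0.05 in 6 of 6 fits without a library. Counts of *Igh-6* were whole in all libraries. Those of *Ighm* were not whole in Sham 1 (405.73) and Sham 3 (793.24). There *Ighg1*, another heavy chain entry, was not whole either, at 2.27 and 0.76. The sum of *Igh-6* and *Ighm* was 25.4, 37.0 and 47.1 CPM in Sham and 76.3, 50.8 and 57.3 CPM in SNI-NP, which did not overlap.

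*Dntt*, which encodes the polymerase that adds bases during rearrangement, had 4, 1 and 5 counts in Sham and 36, 8 and 6 in SNI-NP, so that SNI-NP 1 was 4.66 times the next library. *Tnfrsf13b*, a receptor gene of mature B cells, had 0 counts in all libraries. *Vpreb3* and *Fcer2* had at most 2 counts in any library. The plasma cell list was at 75.0 to 85.6 CPM in Sham and 75.6 to 90.1 CPM in SNI-NP, with 1 of its 6 tested genes higher at an unadjusted p under 0.05 (4.91% of all genes), and 0 without Sham 1, without Sham 2 or without SNI-NP 3.

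**Figure D3:**
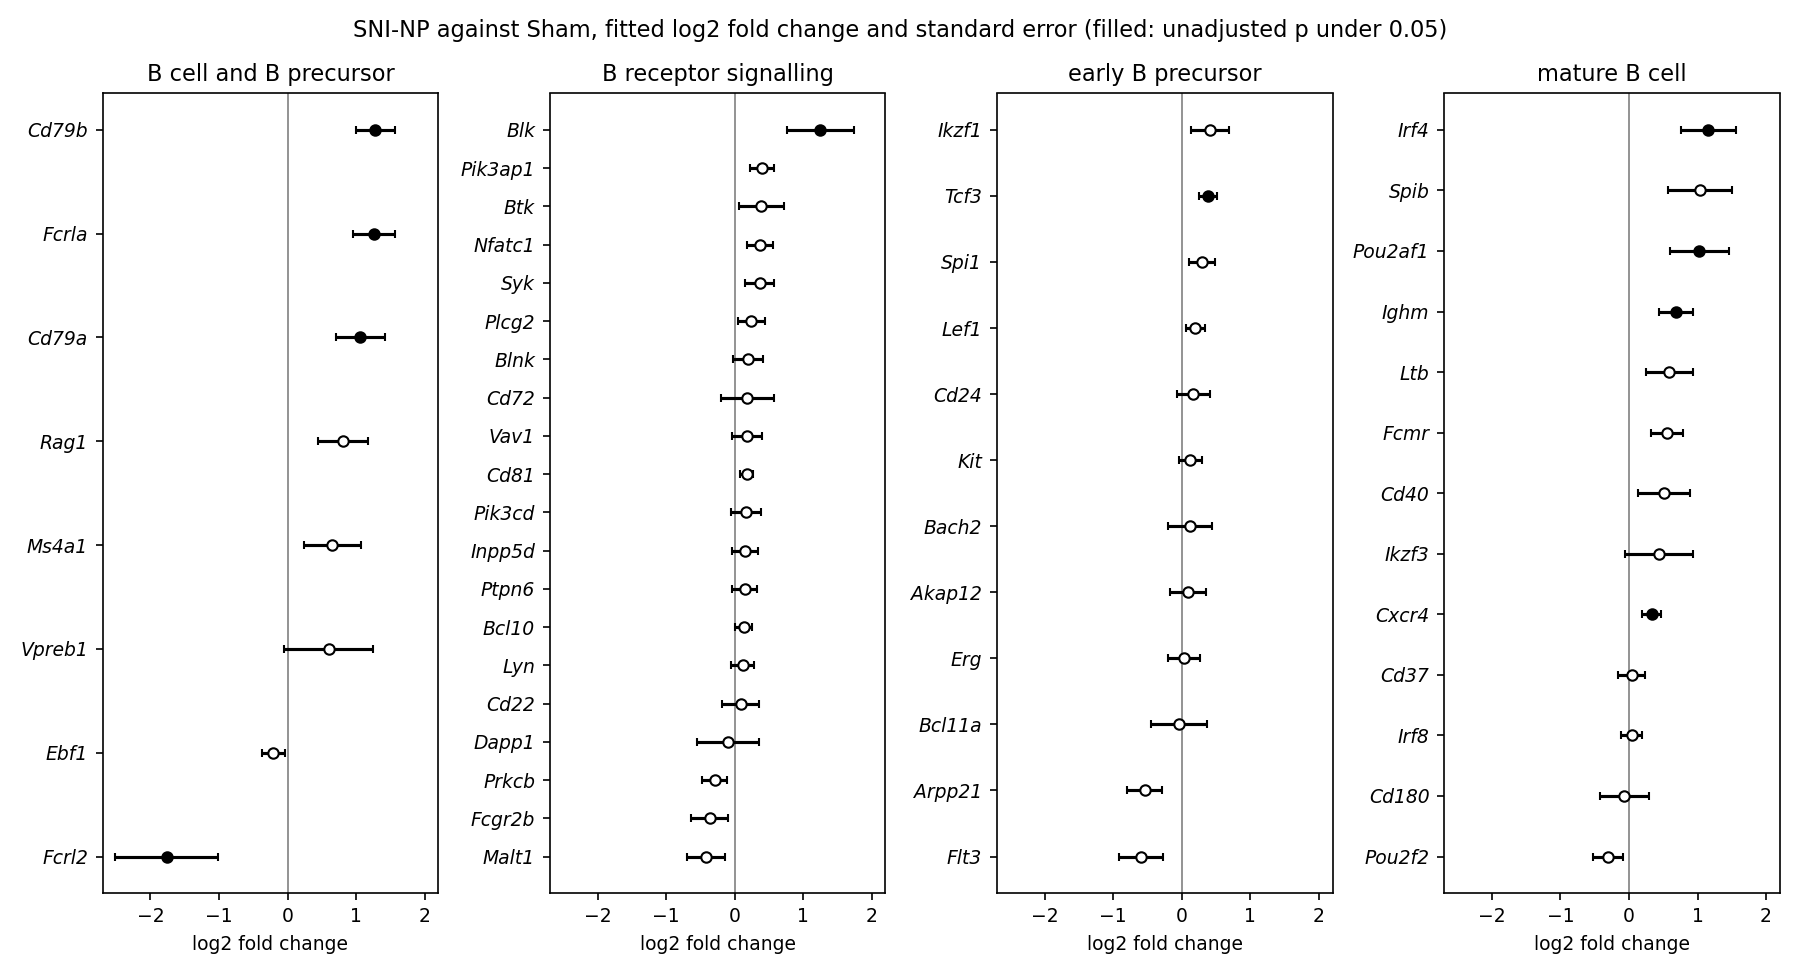
Fitted log2 fold change of SNI-NP against Sham for the 8 tested genes of the set and for the tested genes of 3 B lineage lists, with the standard error as bars and filled points for an unadjusted p under 0.05. *Cd79b*, *Fcrla* and *Cd79a* lie near 1.28, 1.26 and 1.06 beside *Blk*, *Irf4*, *Spib* and *Pou2af1*. *Fcrl2*, also filled, lies farthest from 0, at -1.77. Most other genes lie near 0, and 0 points pass the adjusted threshold.

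Markers of other cells of blood and marrow were set beside the B cell genes. Of 15 tested genes of the neutrophil and granule list, 15 had a log2 fold change above 0, as had 50.9% of all genes tested. In 4 of them, against 4.91% of all genes, the unadjusted p was under 0.05 (1 without Sham 1, 2 without Sham 2 or SNI-NP 1, 7 without SNI-NP 2 and 13 without Sham 3), and their summed level was 75.0 to 222 CPM in Sham and 173 to 350 CPM in SNI-NP. SNI-NP 1 was the highest library in 14 of them and Sham 1 the lowest in 13. The erythroid list had 8 of 12 genes higher and 1 lower at an unadjusted p under 0.05, against 4.91% and 5.94% of all genes (2 higher without SNI-NP 1, and 3 without Sham 1 or Sham 2), with 1167 to 2709 CPM in Sham and 2406 to 5726 CPM in SNI-NP. T and NK cell genes were at 22.2 to 25.8 CPM in Sham and 18.4 to 28.8 CPM in SNI-NP, with 0 of 14 genes past the unadjusted threshold by edgeR or DESeq2, and 2 lower without SNI-NP 3. Bone cell genes were at 139 to 186 CPM in Sham and 165 to 176 CPM in SNI-NP. Of 7 tested, 0 passed the unadjusted threshold, and 2 were higher without Sham 1. Of 2 tested platelet and megakaryocyte genes, 1 was higher at that threshold (0 without SNI-NP 1). Of 10 proliferation genes, 4 were higher, against 4.91% of all genes (2 without Sham 1, and 3 higher and 3 lower without SNI-NP 1). Skeletal muscle genes ranged from 12.1 to 72.1 CPM in Sham and from 10.2 to 423 CPM in SNI-NP, highest in SNI-NP 3. The part of these cells in the B cell values was not tested.

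As a share of the neutrophil list, *Cd79b* was at 2.40%, 1.24% and 1.02% in Sham and 1.08%, 2.92% and 1.73% in SNI-NP, so the groups overlapped. *Fcrla* was at 2.24%, 1.60% and 1.42% against 1.69%, 2.70% and 2.07%, again with overlap. Both genes also overlapped when set against the erythroid list. Relative to the T and NK cell list, all SNI-NP libraries stayed above all Sham libraries, with *Cd79b* at 6.98%, 6.10% and 9.77% against 16.8%, 27.5% and 15.1%. The sum of *Cd79a* and *Cd79al* overlapped between the groups in all 3 of these comparisons. Such shares move with the list they are set against. The neutrophil list ranged from 75.0 to 350 CPM over the libraries and the erythroid list from 1167 to 5726 CPM. The T and NK cell list ranged from 18.4 to 28.8 CPM. Overlap or its absence is therefore a description, and no cause was tested.

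**Figure D4:**
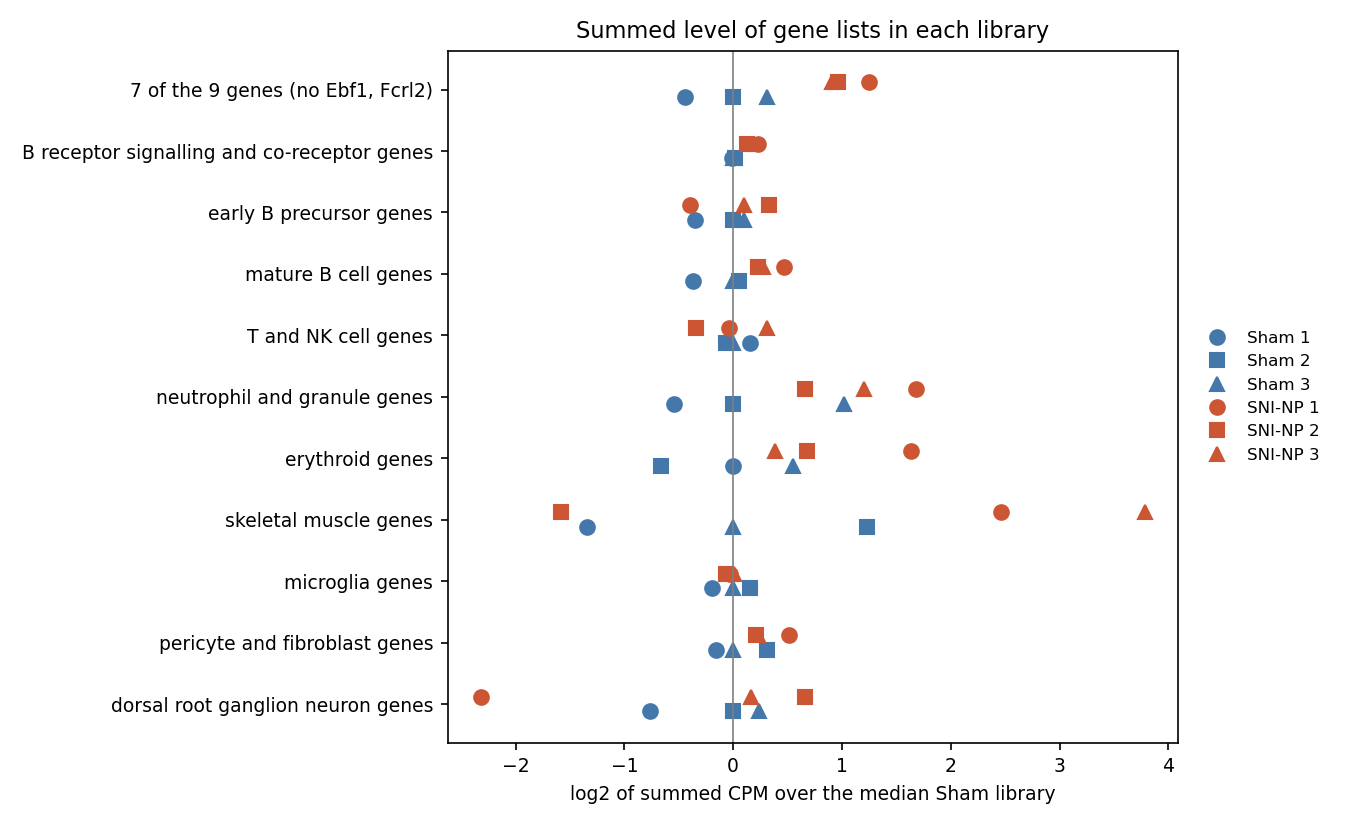
Summed CPM of each gene list in each library, as log2 of its ratio to the median Sham library, with Sham in blue, SNI-NP in red and a marker shape for each replicate number. The 7 B cell genes without *Ebf1* and *Fcrl2* run from 6.92 CPM in Sham 1 to 22.3 CPM in SNI-NP 1. The neutrophil list also has its lowest library in Sham 1 and its highest in SNI-NP 1. So do the receptor signalling list, the mature B cell list and the pericyte and fibroblast list.

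The 12 genes whose levels over the 6 libraries were most like the mean log2(CPM + 0.5) of the 9 genes, among 2111 genes compared, were *Lcn2* (Pearson r 0.975), *Ngp* (0.974), *Lgals5* (0.956), *Ighm* (0.954), *Ifit1bl* (0.9505), *RT1-DMa* (0.9504), *S100a9* (0.949), *Cd177* (0.945), *Olfm4* (0.942), *Fcnb* (0.941), *Cxcr2* (0.931) and *Padi3* (0.920). *Lcn2*, *Ngp*, *S100a9*, *Cd177*, *Olfm4*, *Fcnb* and *Cxcr2* are known from neutrophils and their granules. All 12 were lowest in Sham 1, and *RT1-DMa* was listed at 0 there. The mean profile includes *Fcrl2*, which was high in Sham 2 and Sham 3. It was 0.84, 1.34 and 1.56 in Sham and 1.73, 1.52 and 1.46 in SNI-NP. The ranking was not repeated without *Fcrl2*, so it holds for this profile only. The points are 6 libraries that share their depth and tissue with every gene, so these values rank genes and test nothing.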

How the data were processed

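RNA-seq of spinal cord was analysed in 3 Sham and 3 SNI-NP libraries, grouped by the sample labels. Total RNA had been extracted with TRIzol and libraries made with a NEBNext Ultra kit. The authors kept unique reads mapped to the release they call Rat6, and the submitters' processing notes name FastQC, STAR and HTSeq. The deposited estimated counts are not normalized, and the authors deposited FPKM values beside them. Of 17508 genes with a count, 11.5% had a count that was not whole, and how reads were divided between genes is not given in the sources used here.

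Counts were rounded and tested with edgeR 4.0.16 (R 4.3.3; filterByExpr, TMM, quasi-likelihood test, condition as the only term), adjusted by Benjamini-Hochberg over 14426 genes. The SE is the log2 fold change over the square root of the F statistic. Depth was 16670760 to 18151156 estimated counts per library. The genes, the 20 marker lists and the tests were chosen with earlier results of these data known, and listed genes that are not reported here were left out of the lists' counts and sums. Beside the 9 genes, the rule for named genes took from each list the 3 highest in mean CPM and up to 5 whose highest library was at least 2 times the next, and the 12 genes most like the set over the libraries (at least 30 counts in all, SD of at least 0.5). Not every gene that this rule took is described, *Prkcb* and *Cd24* among those left out. Genes named outside the rule were chosen after their values were seen. Alternatives were DESeq2 1.42.0, RLE size factors, other filters on low counts, FPKM, the replicate number as a block and leaving out each library. Sums of gene copies were added after seeing the data. The fits were also run on simulated counts with planted changes. Those counts held no shift shared by the genes of a library, so that run says nothing on such shifts in these data.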

Additional observations from a re-analysis of the deposited data

How the results depend on the processing

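Of 97 fits of the 9 genes and their copy sums under alternatives, 0 changed sign. No gene of the table passed the adjusted threshold by edgeR, so staying under it says little, and 2 fits passed it, *Cd79b* (1.28) and *Fcrla* (1.26 on the log2 scale) under DESeq2. The number of all genes past a fold change of 2 with an adjusted p under 0.05 was 0 by edgeR and 102 by DESeq2. Leaving out 1 library gave 0 to 206, with 2 without Sham 2 and 206 without SNI-NP 1. At an unadjusted p under 0.05 it was 327 (107 higher, 220 lower) and 258 to 804 without 1 library, with 804 (102 higher, 702 lower) without SNI-NP 1. Of the 9 genes, 4 had an unadjusted p under 0.05, 2 to 4 without 1 library, and 5 when at least 10 counts were required in every library, where *Rag1* joined (p 0.0469 by edgeR). Among the listed B lineage genes, 6 were higher at that threshold, 4 when at least 10 counts were required in every library, 9 by DESeq2 or with no filter on low counts, and 1 to 7 without 1 library. The highest library was 1.02 times the next for the summed genes and 1.22 times without *Ebf1* and *Fcrl2*. The causes were not tested.

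Whether the replicate numbers pair the libraries is not given in the sources used here. Deviations of same-numbered libraries from their group means correlated at 0.214, -0.143 and 0.0538. Only number 1 of the Sham libraries correlated best with its own number. These values cannot decide the pairing, since with 3 libraries a group the deviations cancel out and the correlations depend on each other. With the number as a replicate block, 3 listed B lineage genes were higher at an unadjusted p under 0.05, 423 genes (102 higher, 321 lower) passed a fold change of 2 with it, and log2 fold changes were 1.09 for *Cd79a*, 1.29 for *Cd79b*, 1.31 for *Fcrla* and -1.35 for *Fcrl2*. *Fcrl2* lost its unadjusted call there (p 0.127 by edgeR), so 3 of the 9 genes passed. Low counts limit *Pax5* and *Vpreb1* most.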
